A study of Saccharomyces cerevisiae with 4 samples.

Results

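The genes considered here lie on the left arm of chromosome XI of the budding yeast Saccharomyces cerevisiae. They were chosen as all array probes whose ORF name begins with YKL and that had a value on at least 2 of 4 arrays, with 1 gene left out by the selection rule. This gave 209 genes out of 6157 probes tested and 6210 in the table. The region had been picked because its ratios were raised in these same arrays, so the rise of the arm is described below without a test, and the tests concern how far single genes departed from it.

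RNA of the 5A mutant was compared with RNA of control cells containing the WT CTD. The CTD is the tail of repeated heptads on the largest subunit of RNA polymerase II. In the 5A mutant, alanine insertions of 5 residues separate its pairs of heptads, and the altered gene was brought in on a plasmid that replaced a URA3-linked WT copy in strain Z26. The control carried the WT CTD with the heptad YSPTSPS. If the control went through the same exchange of plasmids is not given in the sources used here. Both were grown to log phase in rich glucose medium, 4 RNA replicates each, on 4 two-colour spotted oligonucleotide arrays. The mutant was labelled with Cy5 and the control with Cy3 on every array, with 0 dye swaps, so a probe's own dye effect cannot be told apart from its ratio. The sources do not say if the replicates were grown apart, and tests over arrays then measure only the spread between these arrays. Mutant cells had divided an unstated number of times before RNA was taken, which limits them as a model of the first effect of the mutation.

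In a yeast ORF name the second letter gives the chromosome, L or R its arm, and the number the order outwards from the centromere, so YKL001C lies beside the centromere of chromosome XI and YKL225W beside its left telomere. W and C name the coding strand. Genes of unrelated function sit side by side along such an arm, most with promoters of their own. The end of an arm is a special neighbourhood, where families such as COS and PAU are repeated at many telomeres and where silencing by the Sir proteins is known to act. RNA came from whole cultures, so a moderate change in every cell and a large change in some of the cells cannot be told apart, and DNA was not analysed here.

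Between 6022 and 6177 probes had a value on an array, and the median log2 ratio over all probes lay between -0.01 and -0.00340. The probe for RPO21, which encodes the subunit that carries the CTD, read -5.97, -4.64, -5.67 and -6.40 on arrays 1 to 4. Where that probe lies relative to the replaced sequence is not given in the sources used here. The spread of the left arm genes about their median was smallest on array 2, with an SD of 0.62 against 0.78, 0.84 and 0.73 on arrays 1, 3 and 4.

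The left arm was raised almost as one block. Its median log2 ratio, 5A mutant over control, was 0.85 on array 1, 0.89 on array 2, 0.91 on array 3 and 0.88 on array 4. The mean of the medians was 0.88 ± 0.02 (SD, n = 4 arrays), which is a ratio of 1.85 and a little short of a doubling. All 4 arrays thus lay within a narrow band. The right arm of the same chromosome, with 107 probes, had medians of 0.92, 0.98, 0.81 and 0.88, mean 0.90 ± 0.07. The left arm was lower than the right on arrays 1 and 2, and higher on arrays 3 and 4. The mean difference was -0.01 ± 0.08 (exact two-sided sign-flip permutation test over 4 arrays, p = 1, where the smallest p possible is 0.125), so that a difference between the arms was not detectable with 4 arrays. Means of the other 30 chromosome arms ran from -0.49 to 0.08.

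**Figure D1:**
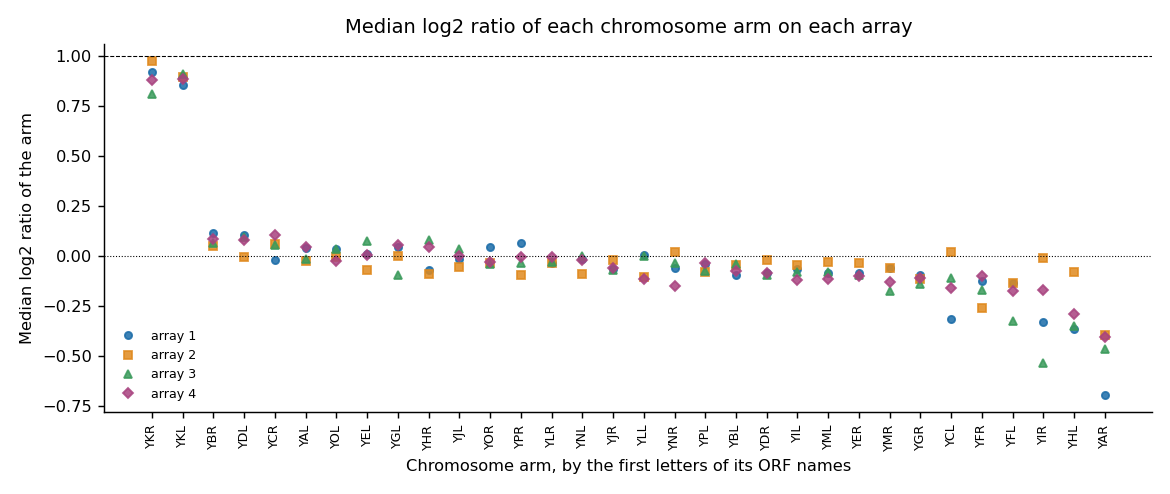
Median log2 ratio (5A mutant over control) of each chromosome arm, 1 point per array, with arms ordered by their mean. The left arm of chromosome XI (YKL, 0.85 to 0.91) and its right arm (YKR, 0.81 to 0.98) stand above all 30 other arms, whose means end at 0.08.

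Most genes took part in the rise. The mean log2 ratio was above 0 for 188 of the 209 genes, or 90.0%, against 49.6% of all probes tested. The genes' means had a median of 0.87, a ratio of 1.83, with quartiles at 0.51 and 1.17, or 1.42-fold and 2.25-fold. On every array measured, 170 genes were positive and 10 were negative. A doubling or more was reached by 82 genes, 39.2%, where 5.75% of all probes reached it, and 4 genes were at a ratio of 0.5 or less, where 8.66% of all probes were. In the limma fit of the ratios themselves 158 genes were called higher and 8 lower, beside 19.8% and 20.7% of all probes. These counts restate the rise by which the arm was picked, and nothing is read from them.

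The genes that tracked the arm most closely included TCD2, which acts in the modification of tRNA, and MTR2, a partner in mRNA export. TCD2 read 1.01, 0.74, 0.84 and 0.87 on arrays 1 to 4. MTR2 read 0.92, 1.06, 1.07 and 0.78. Both stayed within a narrow range around 1.85-fold on each array. A pair of mitochondrial ribosomal protein genes did likewise, MRP49 with a mean of 0.88 ± 0.17 and MRPL38 with 0.84 ± 0.16, as did the uncharacterized YKL076C with 0.87 ± 0.18 (SD, n = 4 arrays each). Among genes with values on 4 arrays, these were the 5 with the smallest departure on their worst array.

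To ask which genes did not follow, the median of the arm was subtracted on each array. The remaining departure was tested with limma over all 6157 probes (Benjamini-Hochberg adjustment at 0.05). Each probe was centred on its own arm, or on the median of all these probes where its name gives no arm. For the left arm genes a departure of 0 therefore means a rise of about 1.85-fold. Of the 209 genes, 31 lay above the arm (14.8%, beside 18.3% of all probes called above theirs), 38 lay below it (18.2%, beside 19.1%) and 140 were not called. Set against an exact doubling in place of the arm median, 23 genes lay above and 50 below. Leaving out array 1, 3 or 4 reduced the count above to 16, 15 and 14 and that below to 24, 26 and 29. In either direction 33.0% of the left arm genes were called against 37.3% of all probes, so departures were about as frequent here as elsewhere. Their size was similar too. The interquartile range of departures was 0.66, and on the other 30 arms it ran from 0.57 to 1.23. A departure within 0.5 of the median, which is a ratio between 1.30 and 2.61, was found for 135 genes, or 64.6%, and for 43.6% to 74.2% of genes on the other arms. Departures of 1 or more numbered 7 upward and 20 downward, and the share of all probes with such departures was not computed. Several of the 20 lay among the 8 genes next to the telomere, described below. Of the 38 genes called below the arm, 18 still had a mean ratio above 0 and 20 lay at or under it.

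**Figure D2:**
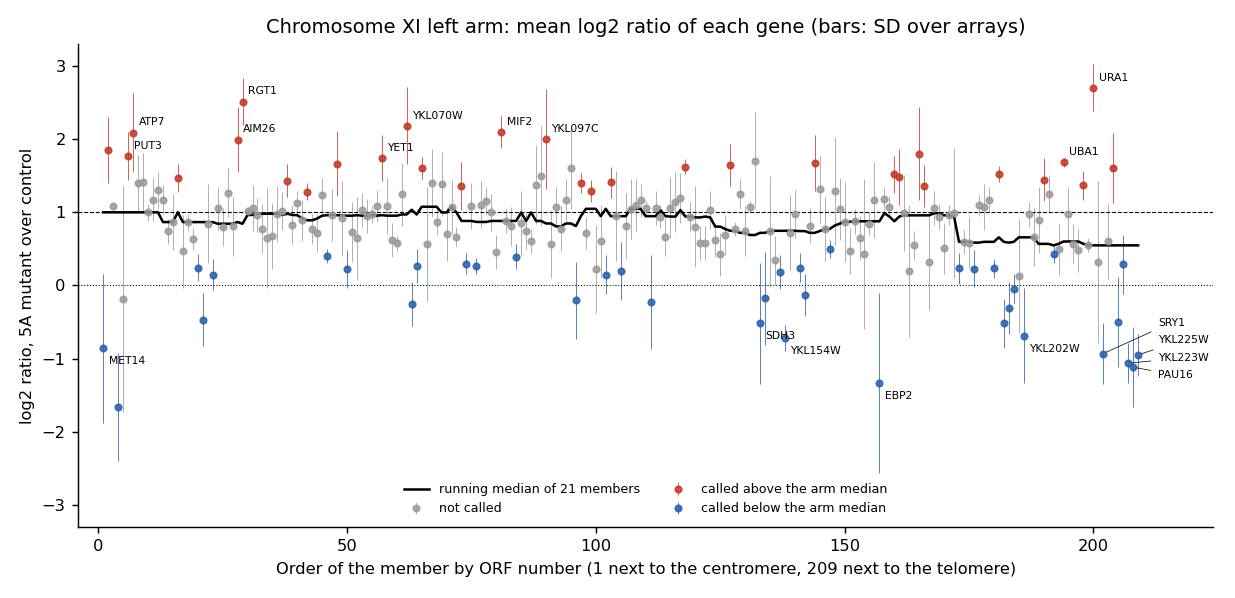
Mean log2 ratio (5A mutant over control) of the 209 genes in ORF order from centromere to telomere, with bars for the SD over arrays, coloured by the call of the departure from the arm median. The running median of 21 genes lies near 1 in the inner part of the arm and is lower towards the telomere, 31 genes are called above the arm and 38 below, and low genes gather at the telomere end.

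The highest gene of the arm was URA1, which encodes dihydroorotate dehydrogenase of pyrimidine synthesis. Its log2 ratios were 2.69, 3.11, 2.33 and 2.67, a mean of 2.70 or 6.50-fold. The lowest array still showed a rise well beyond that of the arm. Its departure was 1.82 ± 0.33 (SD, n = 4; limma adjusted p = 0.000576), or 3.52-fold beyond the arm. URA6, the uridylate kinase gene of the same pathway and arm, did not depart (0.87 ± 0.39, departure -0.02, limma adjusted p = 0.943). Pathway genes on other chromosomes, chosen after their values were seen, differed among themselves. URA4 (0.71 ± 0.19) and URA5 (0.55 ± 0.25) were called above their arms with limma adjusted p of 0.00705 and 0.0175, while URA8 (-0.53 ± 0.21) was called below with 0.0299. URA2, URA7, URA10 and FUR1 were not called (limma adjusted p from 0.0513 to 0.563). URA3, the marker of the replaced plasmid, had a log2 ratio of -4.80 ± 0.38. URA3 thus differed with the strain comparison itself, and its part in the ratio of URA1 was not tested.

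RGT1, which encodes the repressor of hexose transporter genes, came next with 2.13, 2.51, 2.48 and 2.93. It was 5.71-fold higher in the mutant and departed by 1.63 ± 0.32 (limma adjusted p = 0.000799). Its lowest array was still above 4-fold. MIF2, the yeast CENP-C protein that binds centromeric nucleosomes, read 1.93, 2.34, 1.90 and 2.21, with a departure of 1.21 ± 0.22 (limma adjusted p = 0.00141). ATP7, a stalk subunit of the mitochondrial ATP synthase, had an equal departure of 1.21 but a wider spread, from 1.32 on array 2 to 2.54 on array 3 (limma adjusted p = 0.00606). UBA1, the ubiquitin-activating enzyme, was the most even of the high genes with 1.64, 1.66, 1.66 and 1.76 (departure 0.80 ± 0.06, limma adjusted p = 0.00365). PUT3, the activator of proline use, departed by 0.88 ± 0.35, and YET1, an endoplasmic reticulum membrane protein, by 0.86 ± 0.30. The other members of the 10 highest were AIM26 (departure 1.11) and the uncharacterized YKL070W (1.30) and YKL097C (1.11), all at about 4-fold or more. Of these 10 genes only YKL097C lost its call when an array was left out (limma adjusted p = 0.0542 without array 3). The call was less secure for weaker genes: with each array left out in turn, 13 of the 31 calls above were kept every time, 17 were lost at least once, and the call of DID4, which had values on 2 arrays, could not be tested so.

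Among the genes that did not share the rise, EBP2, a nucleolar factor of large ribosomal subunit assembly, had the lowest mean of those on all arrays. Its log2 ratios were -1.91, -0.998, -2.64 and 0.21. The ratio changed sign on array 4, and the departure of -2.22 ± 1.23 (limma adjusted p = 0.00735) was one of the most variable. YKL154W, which encodes the membrane-anchored subunit of the signal recognition particle receptor, was steadier with -0.62, -0.73, -0.96 and -0.56. It was lower in the mutant on every array, with a departure of -1.60 ± 0.20 (limma adjusted p = 0.000487) and a level 3.03-fold below the arm. MET14, the adenylylsulfate kinase of sulfate assimilation and the gene nearest the centromere, read 0.58, -0.85, -1.57 and -1.60. Array 1 stood near the arm median and the other arrays far under it (departure -1.74 ± 1.04, limma adjusted p = 0.00985). SDH3, a membrane subunit of succinate dehydrogenase, had -0.59, -0.57, -1.46 and 0.56 (departure -1.40 ± 0.84, limma adjusted p = 0.0110). SRY1, a hydroxyaspartate dehydratase, was negative on all arrays, from -1.46 to -0.43 (departure -1.82 ± 0.41, limma adjusted p = 0.000821). The remaining low genes were PAU16, YKL202W, YKL223W and YKL225W, with departures between -2.001 and -1.57, and none of these low genes lost its call when an array was left out. CAP1, for the alpha subunit of the actin capping protein, is named after its values were seen. It had -2.18 and -1.14 on 2 arrays and no value on the others (departure -2.54, limma adjusted p = 0.00365). Of the 38 calls below, 22 were kept with each array left out, 15 were lost at least once, and that of CAP1 could not be tested so.

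**Figure D3:**
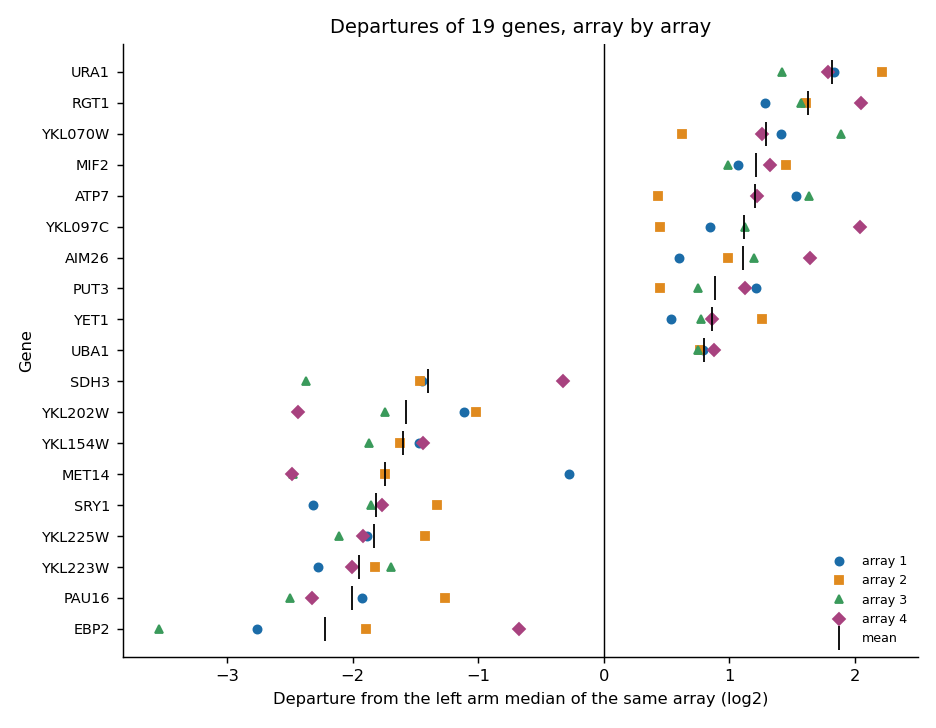
Departure of 19 genes from the left arm median of the same array (log2 scale), with 1 symbol per array and a bar for the mean. URA1 and RGT1 lead the high genes with means of 1.82 and 1.63, UBA1 varies least, and EBP2 and MET14 vary most among the low genes.

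Grouped by function, the genes lay on both sides of the arm. A set of 20 lists held 138 genes of the arm, of which 124 were measured. Their median departure was 0.08, against -0.01 for all 209 genes and -0.001 for all probes. The lists were read with the counts of calls and the median only, beside background rates of 18.3% above and 19.1% below, and most hold too few genes to set one against another.

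The list with the highest median was that of the cytosolic ribosome and elongation. It had a median departure of 0.63, with 3 of 4 measured genes above and 0 below. RPL17A, a large subunit protein, read 2.06, 0.85, 2.22 and 2.08 (departure 0.92, limma adjusted p = 0.0226). TMA19, a ribosome-associated protein, departed by 0.78 and TEF4, a subunit of the elongation factor eEF1B, by 0.48 (limma adjusted p = 0.0175 and 0.0491). Array 2 was the lowest array for each of them. RPS27A had a departure of 0.09 and was not called. All 3 calls were lost when array 1, 3 or 4 was left out, with limma adjusted p up to 0.0954, 0.0777 and 0.184, and all 3 were kept without array 2. The 2 cytosolic ribosomal protein genes of the arm, RPL17A and RPS27A, had a median departure of 0.51, and the 125 on other chromosomes had one of 0.63, with 64 above and 2 below. The 59 mitochondrial ribosomal protein genes elsewhere had a median departure of -0.18, with 4 above and 7 below, and the 5 on the arm had one of -0.008. The mitochondrial translation list of the arm, which adds MST1 to these, had 6 genes with a median of 0.09. It had 0 limma calls in either direction, also at an unadjusted p under 0.05.

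Ribosome assembly had calls on both sides, too few to read as a trait of the function. RRN3, an initiation factor of RNA polymerase I, was above the arm with 1.75, 1.66, 1.54 and 1.55 (departure 0.74 ± 0.12, limma adjusted p = 0.00529). EBP2 and RRP14, both factors of ribosome assembly, were below it. RRP14 read 0.29, 0.32, 0.11 and 0.46 (departure -0.59, limma adjusted p = 0.0132), and its call was lost without array 1 or 3 (limma adjusted p = 0.0574 and 0.0599). The list had 6 measured genes, 1 above and 2 below (18.3% and 19.1% of all probes), with a median of 0.006.

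Respiration also had a few calls on both sides. ATP7 was above, while SDH3, MAE1 (mitochondrial malic enzyme) and HAP4 (the activating subunit of the Hap complex that drives respiratory genes) were below, 1 and 3 of 7 genes with a median of -0.14. HAP4 read 0.07, -0.12, 0.12 and 0.51 (departure -0.74 ± 0.27, limma adjusted p = 0.00929). Its level in the mutant was therefore close to the control's, while the arm around it was nearly doubled. MAE1 departed by -0.64 (limma adjusted p = 0.0102, and 0.0572 without array 1). The list of mitochondrial import and assembly had 10 genes, some with other mitochondrial functions, such as AAT1 and CBT1. In it OCT1, a processing peptidase of the matrix, was above (0.76, limma adjusted p = 0.00832). So was AAT1, the mitochondrial aspartate aminotransferase (0.41, limma adjusted p = 0.0453, and up to 0.175 with an array left out). MIA40, the import receptor of the intermembrane space, was below (-0.65 ± 0.15, limma adjusted p = 0.00927). HOT13, a zinc-binding protein of that compartment, and CBT1, which acts on cytochrome b mRNA, were below by 0.62 and 0.45 on the log2 scale (limma adjusted p = 0.00947 and 0.0299, up to 0.0545 and 0.123 with an array left out).

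In RNA polymerase II transcription, 5 genes were measured, with 1 above and 2 below and a median of -0.25. ELF1, an elongation factor, read 1.92, 1.11, 1.87 and 1.78 (departure 0.79, limma adjusted p = 0.0126). TOA2, the small subunit of TFIIA, read 0.23, 0.55, -0.08 and 0.18 (departure -0.66, limma adjusted p = 0.0135). DEF1, which acts in the degradation of stalled polymerase, departed by -0.48 ± 0.11 (limma adjusted p = 0.0235). Each of these 3 calls was lost without array 1, 3 or 4, with limma adjusted p up to 0.0610, 0.0614 and 0.102. Of 7 gene-specific transcription factors PUT3 was above, and ABF1, a general regulatory factor, and IXR1, an HMG-box protein, were below (list median -0.23). IXR1 read 0.07, 0.41, -0.09 and 0.20 (departure -0.74 ± 0.22, limma adjusted p = 0.00771). ABF1 departed by -0.69 (limma adjusted p = 0.0232, and 0.0788 without array 3).

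Secretion and vesicle traffic had 3 genes above and 1 below of 9, with a median of 0.18. LHS1, a chaperone of the endoplasmic reticulum lumen, read 1.62, 1.47, 1.80 and 1.53 (departure 0.72 ± 0.14, limma adjusted p = 0.00631). YKT6, a SNARE protein, read 1.52, 1.37, 1.63 and 1.57 (departure 0.64 ± 0.11, limma adjusted p = 0.00874). Both held their calls with any array left out. DID4, an ESCRT-III subunit, had 2.17 and 1.54 on 2 arrays, and YKL154W was the low gene of this list. Membrane transport and the vacuole had 2 of 8 above, the ferric reductase FRE2 (0.73) and the vacuolar zinc transporter ZRT3 (0.63), and 1 below, the permease relative MCH2 (-1.38, limma adjusted p = 0.00495). The calls of FRE2 and ZRT3 (limma adjusted p = 0.0243 and 0.0159) were lost without array 4 (0.0995 and 0.0782) and without a second array each.

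The kinetochore, spindle and anaphase list had 5 genes, with MIF2 called above and 0 below (median 0.25). CSE4, the centromeric histone H3 variant, read 1.25, 0.93, 1.28 and 1.07. CDC16, a subunit of the anaphase-promoting complex, read 1.46, 1.06, 1.10 and 1.06. Both were about doubled, as the arm was, and neither departed from it (departures 0.25 and 0.29, limma adjusted p = 0.177 and 0.142). HSL1 (0.29), a kinase of the morphogenesis checkpoint, APN1 (0.16), an endonuclease of base excision repair, PIR1 (0.16), a cell wall glycoprotein, SHE2 (0.15), an RNA-binding protein of ASH1 mRNA transport, and MDM35 (-0.17), a mitochondrial protein, were likewise not called, but APN1 was called above without array 2 (departure 0.37, limma adjusted p = 0.0432). The lists of the cell wall (7 genes, median 0.16), of DNA replication and repair (5 genes, 0.10), of oxidative stress and chaperones (4 genes, 0.22) and of mating (4 genes, -0.14) had 0 calls in either direction in the limma fit. At an unadjusted p under 0.05 these would have been 1 above and 1 below in the cell wall list, 1 above in the DNA list and 0 in the other two. Without array 2, limma called 1 above and 1 below in the cell wall list, 2 above in the DNA list and 1 below in the oxidative stress list.

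In the remaining lists the calls were few. Amino acid and nucleotide synthesis had URA1 and PRS1 above and MET14 below among 6 genes (median 0.04). Glycolysis and sugar nucleotides had RGT1 and GFA1 above of 5, and the mRNA processing list PAN3 and YRA2 above of 8, with 0 below in both (medians -0.08 and -0.04). The calls of PRS1, GFA1, PAN3 and YRA2, with departures between 0.48 and 0.58, were all lost with array 1, 3 or 4 left out. Lipid metabolism had 1 below of 7, the peroxisomal fatty acid transporter subunit PXA2 (-0.65, limma adjusted p = 0.0118, and 0.0524 without array 3), and the lowest median of the lists with over 2 genes (-0.32). Of 9 protein kinases, PTK1 alone was called, below the arm at -0.71, 0.09, -0.46 and -0.16 (departure -1.19 ± 0.34, limma adjusted p = 0.00254).

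**Figure D4:**
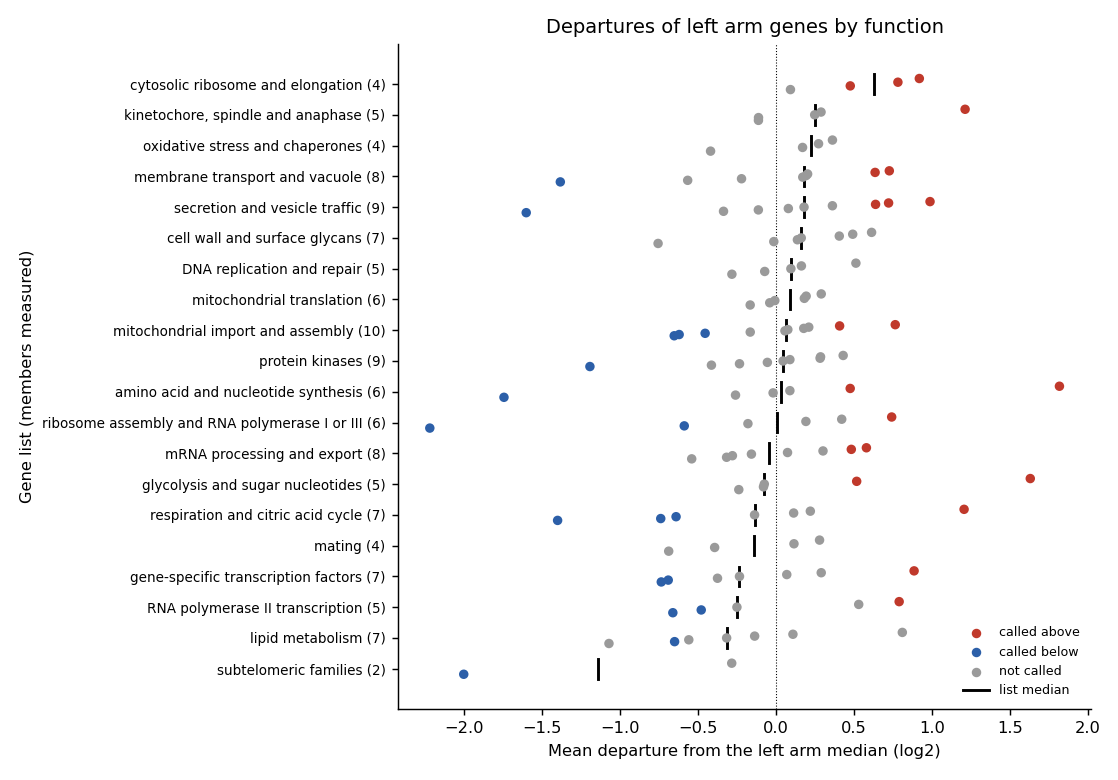
Mean departure of the measured genes of each list from the left arm median (log2 scale), coloured by call, with a bar for the list median. The cytosolic ribosome list has the highest median (0.63), and the respiration, ribosome assembly and RNA polymerase II lists hold genes on both sides.

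The arm was raised over nearly its whole length. In blocks of 20 consecutive genes from the centromere, the mean of the per-array medians was 1.04, 1.00, 0.92, 0.94, 0.87, 0.98, 0.67, 0.85, 0.78 and 0.71, with SDs over arrays from 0.04 to 0.17. By this measure lower values lay in the outer blocks, from YKL128C outwards. By the median of the genes' means this did not hold for each block. There YKL176C to YKL195W stood at 0.95, above YKL089W to YKL107W at 0.86. By the per-array medians, the last 9 genes, YKL217W to YKL225W, lay at -0.45 ± 0.51. They did not share the rise as a group.

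The 8 genes next to the telomere, YKL218C to YKL225W, had a median log2 ratio of -0.72, and 6 of them were called below the arm and 1, FRE2, above. PAU16, of the seripauperin family, read -1.07, -0.37, -1.59 and -1.44 (departure -2.001 ± 0.55, limma adjusted p = 0.00112). YKL223W and YKL225W on either side of it read -1.42, -0.93, -0.79 and -1.12, and -1.03, -0.53, -1.20 and -1.03. These 3 genes were lower in the mutant on every array. COS9, of the COS family, differed with 0.20, 1.36, 0.47 and 0.38, a mean of 0.60 ± 0.52 that was not called (departure -0.28, limma adjusted p = 0.301). Array 2 stood well above the others, and without it COS9 was called below (departure -0.53, limma adjusted p = 0.0148). The list of subtelomeric families held PAU16 and COS9, with 1 below and 0 above, and 2 below without array 2. Ends of other arms were low as well. Set against its own arm in the same way, the median of the last 8 genes was -1.60 here and between -2.27 and 0.41 on the other 31 arms, negative on 29 of them. The 22 PAU genes elsewhere had a median departure of -1.07 with 21 called below, and the 11 COS genes -0.95 with 10 called below. Before the arm medians were subtracted, their median log2 ratios were -1.10 and -1.09. PAU16 had a mean log2 ratio of -1.12, close to that of its family, and COS9 one of 0.60. Probes of such repeated families can bind RNA of their relatives. Without the 8 genes the median of the arm's genes was 0.89, with 30 above and 32 below.

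Away from the telomere, some runs of measured genes lay on 1 side of the arm median. The runs were picked from the departures themselves, and their length was not tested. Over all 172 pairs of adjacent genes, departures had a Pearson r of 0.05. PTK1, YKL199C, MNN4 and YKL202W, which follow each other in the order of measured genes, all lay below the arm, and MNN4 was the only one of them not called. YKL199C and YKL202W have no entry in the RefSeq gene table, and their overlap with neighbouring genes was not analysed here. MNN4, a regulator of mannosylphosphate addition, had a departure of -0.76 (limma adjusted p = 0.0715) and was called without array 2 (-1.10, limma adjusted p = 0.00421). The next gene outwards, TOR2, was at 0.97. From YKL141W to YKL155C, the 7 genes of the 209 lay below with a median departure of -0.70, among them SDH3, YKL154W and the proteasome subunit gene RPT1 (-0.91, -0.01, -0.39 and 0.60, departure -1.06, limma adjusted p = 0.0132, and 0.0587 without array 3), and 4 of the 7 were called. They do not all adjoin each other, and RPC25, AVT3 and SDH1, which lie between them and had a value on 1 array each, read 1.10, -0.36 and -1.03. Further ORF numbers of this stretch had no value on any array. YKL147C and YKL153W, which are among the 7, have no entry in the RefSeq gene table. The longest run above the arm held 8 genes, YKL015W to YKL022C, from PUT3 and ATP7 to CDC16, with a median log2 ratio of 1.35, of which 2 were called.

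Genes of either strand took part alike in the rise. The 112 genes on the W strand had a median of 0.87 with 18 above and 23 below, and the 97 on the C strand a median of 0.87 with 13 above and 15 below. Across the 187 genes found in the RefSeq gene table (assembly R64), departure and gene length had a Spearman rho of -0.11, given as a description over genes that share the same arrays. Among adjacent genes, departures of divergent pairs, which share an upstream region, had a Pearson r of 0.44 and a Spearman rho of 0.32 (40 pairs). For convergent pairs these were -0.24 and -0.19 (38 pairs), and for tandem pairs 0.02 and -0.004 (94 pairs). All 172 pairs together gave 0.05 and 0.03. The divergent pairs include LAC1 and CAP1, with departures of -1.07 and -2.54, and CAP1 had values on 2 arrays only. The divergent values without this pair were not computed. Pairs share arrays and neighbours, so these values are descriptive.

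Of the 22 ORFs with no entry in that gene table, limma called 0 above the arm (2 at an unadjusted p under 0.05) and 9 below. Of all probes, limma called 18.3% above their arm and 19.1% below. The median departure of the 22 ORFs was -0.21, and that of the 187 other genes of the arm was 0.006. The 9 were YKL030W, YKL118W, YKL153W, YKL158W, YKL162C-A, YKL199C, YKL202W, YKL223W and YKL225W. Their means ranged from -1.06 to 0.49, and that of YKL162C-A was the closest to the arm and was lost with array 1, 3 or 4 left out (limma adjusted p up to 0.214). Their overlap with neighbouring genes was not analysed here, nor were ORFs without an entry on other arms.

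The rise can also be set against paralogues, gene pairs left by duplication of which 1 copy lies on the arm and the other on another chromosome. Of 23 such pairs listed, 21 had both copies measured. The left arm copy exceeded its partner by a median of 0.62, 0.61, 0.53 and 0.74 on arrays 1 to 4, mean 0.62 ± 0.09. It had the higher mean in 20 of 21 pairs and was higher on all arrays in 11. The median partner lay at -0.15 and the median arm copy at 0.82. No test was made, since the rise of the arm chose the genes. The ratios of the arm copies are among those by which the arm was picked. A higher arm copy therefore restates the rise and is no separate support for it.

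The pair with the widest gap was SPT23 and MGA2, membrane-bound transcription factors that control fatty acid desaturation. SPT23 on the arm was at 1.17 ± 0.29 and MGA2 at -0.98 ± 0.44, and the difference was 2.24, 1.96, 1.96 and 2.45 on arrays 1 to 4. SPT23 itself was not called against the arm (departure 0.29, limma adjusted p = 0.179), and the copies lay on opposite sides of 0. YET1 and YET2 differed by 1.84 ± 0.41, and the protein kinases YPK1 and YPK2 by 1.50 ± 0.43. TOR2, a kinase of growth control, exceeded TOR1 by 0.31 ± 0.39, which is within the spread of arrays. RPL17A and RPL17B stood at 1.80 and 1.54, and RPS27A and RPS27B at 0.98 and 0.89, but their copies are so alike that each probe may have read both. The only pair with the partner higher was PTK1 and PTK2, at -0.31 and -0.17 (difference -0.14 ± 0.32).

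**Figure D5:**
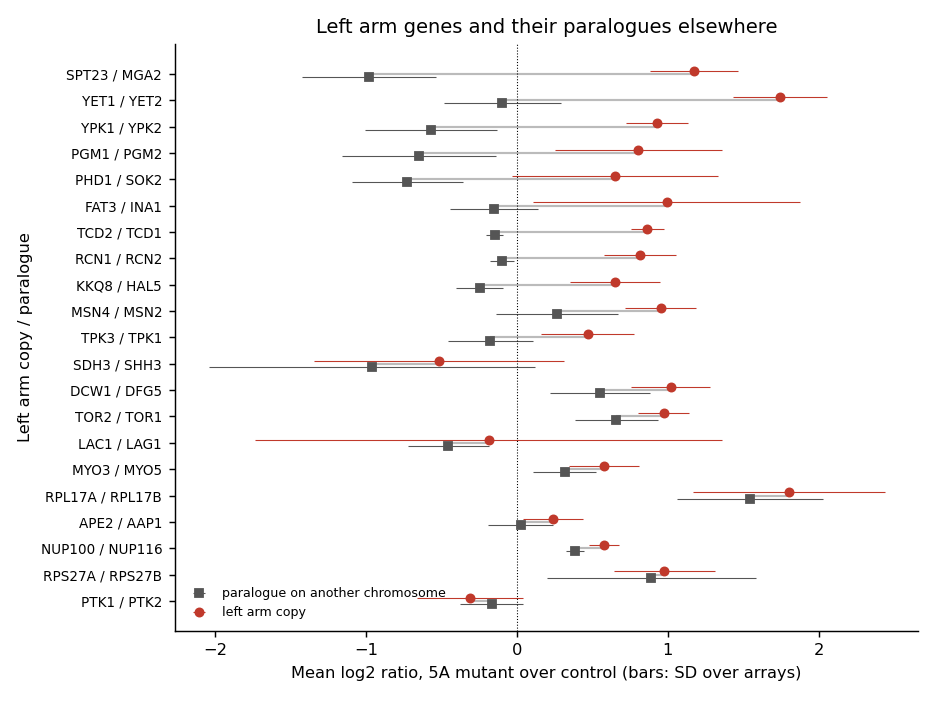
Mean log2 ratio (5A mutant over control) of 21 left arm genes (circles) and their paralogues on other chromosomes (squares), with bars for the SD over arrays, ordered by the difference. The left arm copy is to the right in 20 pairs, from SPT23 and MGA2 with a gap of 2.15 down to RPS27A and RPS27B.

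Genes at the border of the selection rule had a value on 2 arrays or on 1. Of the 209 genes, 200 had values on 4 arrays, 3 on 3 arrays and 6 on 2. The 6 were DID4, CAP1, MRP17 (1.06 and 1.10), YKL102C (1.21 and 1.99), YKL147C (0.21 and 1.28) and YKL177W (0.62 and 1.36). A further 7 had 1 value and were left out, namely RPL14A (2.55), RPC25 (1.10), SFT1 (1.06), AVT3 (-0.36), ARC19 (-0.42), SDH1 (-1.03) and URB1 (-4.18). They spanned a wider range than the genes with 2 values.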

How the data were processed

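The 4 two-colour arrays, each of mutant against control RNA, form 1 group. The authors scanned the arrays, normalized them on a web server and deposited 1 log2 ratio per probe and array. The method of normalization, the base and the direction are not given in the sources used here. Base 2 and mutant over control were inferred, since with values on all 4 arrays 325 probes then lie at 1 or more and 493 at -1 or less of 5955, the totals by which the study counts its changed genes. Spot intensities were not analysed here, so the number of arrays alone limits the stated precision. The ratios were used as deposited.

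Probes measured on 2 or more arrays were kept. The median of each chromosome arm was subtracted on each array, or that of all kept probes where a probe's name gives no arm. The departures were fitted with an intercept by limma 3.58.1 (lmFit and eBayes, R 4.3.3), with Benjamini-Hochberg adjustment over 6157 probes at 0.05. The difference between arms was tested by an exact sign-flip permutation (Python 3.11.15, numpy 2.4.6, pandas 2.3.3). Figures were drawn with matplotlib 3.10.9. The fit was also run on simulated independent normal values with no arm shift, no arm centring and no dye effect. That run therefore does not test how the fit handles these features. Symbols came from RefSeq (assembly R64), which lists the ORFs of 5715 of the 6210 probes. Promoter and protein sequences were not analysed here.

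The genes named are the 10 highest and 10 lowest departures with an adjusted p under 0.05, 4 values and a departure of one sign, the 5 closest to the median on every array, members of the lists and paralogue pairs, and genes of the study's networks. Of the 10 lowest, 1 is not reported here. The genes, lists and pairs were chosen with earlier results of these data known. Alternatives were other centres, spreads, filters, weights and each array left out.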

Additional observations from a re-analysis of the deposited data

Results flagged for a closer look

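In 5 genes 1 array stood far from the other 3 by Dixon's criterion at 95%. This was checked for 78 sets of 4 values, and chance alone flags about 1 in 20. UBA1 read 1.76 on array 4 and 1.64 to 1.66 on the others, so that the gap was small in size. CDC16 read 1.46 on array 1 and 1.06 to 1.10 on the others. Array 2 gave the lowest value in the other three, with 0.44 for APN1 (others 1.21 to 1.30), 1.11 for ELF1 (others 1.78 to 1.92) and 0.85 for RPL17A (others 2.06 to 2.22). Array 2 was also the array with the smallest spread of departures over the arm.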

How the results depend on the processing

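The median of the left arm stayed between 0.88 and 0.91 under the other settings tried, and was 0.84 as a 10% trimmed mean. The difference left arm minus right arm was near 0 and changed sign: it was 0.00376 without ORFs absent from the gene table, and between -0.0463 and 0.00680 with 1 array left out. The number of genes above the arm ranged from 14 to 39 and that below from 24 to 45 with 1 array left out, the highest in both without array 2. Under 8 other settings these counts stayed within 1.5 times. No gene called both in the main analysis and under an alternative changed sign. Of 82 genes at a doubling or more by their mean, 33 reached it on every measured array. The paralogue difference of 0.62 was 0.76 as a mean over pairs and 0.78 without the ribosomal protein pairs. The departures of single genes kept their side of the threshold in 881 comparisons with an alternative, lost the call in 64 and gained one in 9. Leaving out the 8 genes next to the telomere was an alternative chosen after seeing the data. No paired analysis was possible because each deposited ratio already sets a mutant against a control RNA on 1 array, and the arrays form 1 group with no second group to pair. With 4 arrays, no exact test over arrays can reach 0.05, and spots of low signal could not be told from others.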
